A study of Mus musculus with 4 samples.

Results

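The genes described here encode the core module of the BAF chromatin remodelling complex and the Bcl7 proteins that travel with it, as they were expressed in the cerebellum of adult mice that lack 1 copy of Arid1b. They were the 10 rows of the deposited count table, out of 24015, whose symbol was Smarcb1, Smarce1, Smarcc1, Smarcc2, Smarcd1, Smarcd2, Smarcd3, Bcl7a, Bcl7b or Bcl7c. All 10 were found and all 10 passed the filter on low counts that left 15117 genes. The rule that picked them used gene names alone and no measured value, but it was set with earlier results of these data known.

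Messenger RNA was sequenced from the dissected cerebella of heterozygous Arid1b knockout mice (HT) and wild type littermates (WT), all of the C57BL/6N substrain and 140 to 150 days old. Each genotype had 1 male and 1 female library, and total counts lay between 15950899 and 20616219. The sources used here do not say which part of Arid1b was deleted or in which cells. No label names the animal behind a library, and the p-values below therefore speak of how these 4 libraries vary, which may be partly technical. Counts of Arid1b itself, scaled for depth, were lower in both HT libraries than in both WT libraries, with the values given with the other subunits. All 13 granule cell markers and all 12 Purkinje cell markers on the marker lists passed the filter on low counts.

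BAF complexes use the energy of ATP to slide or evict nucleosomes and so open stretches of chromatin. Their core module is built on a pair of Smarcc scaffold proteins, joined by 1 Smarcd protein, by the HMG box protein Smarce1 and by Smarcb1, which touches the face of the nucleosome. The Arid1a or Arid1b subunit then joins the core, and the motor, Smarca4 or Smarca2, is added with its own partners. The Bcl7 proteins are small accessory subunits that bind on the motor side of the complex. Several of these positions can be filled by close relatives, and the choice between relatives changes as neural progenitors become neurons.

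Whether reads of 100 bases can tell these relatives apart was looked at first in the transcript sequences of GENCODE release M21 on the build GRCm38. The submitters' notes name the older build mm9, so coordinates here are those of GRCm38 and place the sequences only. The sequences below show the stretch where each of 3 pairs of relatives is most alike, since that is where a read could be assigned to the wrong gene. Capitals mark the longest run of coding bases that both genes share exactly, and lower case marks 20 coding bases on either side.
Smarcd2 (chr11:106264203-106264260, minus strand, exon 12): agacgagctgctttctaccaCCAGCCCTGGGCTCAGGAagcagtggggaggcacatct
Smarcd1 (chr15:99712195-99712252, plus strand, exon 12): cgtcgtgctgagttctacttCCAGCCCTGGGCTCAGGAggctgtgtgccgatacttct
Smarcc1 (chr9:110213549-110213614, plus strand, exon 25): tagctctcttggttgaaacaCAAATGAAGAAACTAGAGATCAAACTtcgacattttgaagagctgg
Smarcc2 (chr10:128485600-128485665, plus strand, exon 25): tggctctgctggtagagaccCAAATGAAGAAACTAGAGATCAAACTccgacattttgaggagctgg
Bcl7c (chr7:127708439-127708505, minus strand, exon 1): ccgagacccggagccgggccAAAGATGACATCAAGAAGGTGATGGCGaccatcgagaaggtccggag
Bcl7b (chr5:135168529-135168595, plus strand, exon 1): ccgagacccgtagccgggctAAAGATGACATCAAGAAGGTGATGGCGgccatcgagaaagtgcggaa
The longest shared run was 18 bases for Smarcd2 and Smarcd1, 26 for Smarcc1 and Smarcc2 and 27 for Bcl7c and Bcl7b. Over the 7 pairs compared within the Smarcc, Smarcd and Bcl7 families it was 18 to 27 bases, so that no error-free read of full length can match the coding sequence of 2 family members.

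Copies outside the families were another matter. Every window of 100 bases in the transcript with the longest coding sequence was searched for in the transcripts of all other genes on both strands. Smarcb1, Smarcc2, Smarcd2, Bcl7a and Bcl7b had no window in common with another gene. Smarce1 shared 742 of 2820 windows (26.3%) with the loci Smarce1-ps1, Gm8494, Gm4811 and Gm13320, and Bcl7c shared 82 of 792 (10.4%) with Gm3219. Smarcd3 shared 10.02% of its windows with Chpf2 on the opposite strand, and 39.4% when all its annotated transcripts were searched, and Smarcd1 shared 6.64% with Gm17349 and Gm34939, also on the opposite strand. Smarcc1 shared 51 of 5618 windows (0.908%) with Gm7004. The sources used here do not state how the counting treated strand or reads that match 2 places, so counts of Smarce1, Bcl7c, Smarcd3, Smarcd1 and Smarcc1 are uncertain to that extent.

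None of the 10 genes passed the test between HT and WT, where the background was 0.0198% of all tested genes (edgeR quasi-likelihood test with sex as a term, adjusted p under 0.05). At an unadjusted p under 0.05 there was 1 of the 10, Smarcd2, against 11.7% of all tested genes. The log2 fold changes of HT over WT ran from -0.36 to 0.13 with a median of -0.01, where the median of all tested genes was 0.0063. Apart from Smarcd2, the 9 genes lay between 0.951 and 1.09 times the WT level, with adjusted p from 0.746 to 0.995. A p of this size does not show equal levels, but the 95% confidence intervals of these 9 genes stayed between 0.695-fold and 1.32-fold and so lay inside a change of 1.5-fold in either direction.

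**Figure D1:**
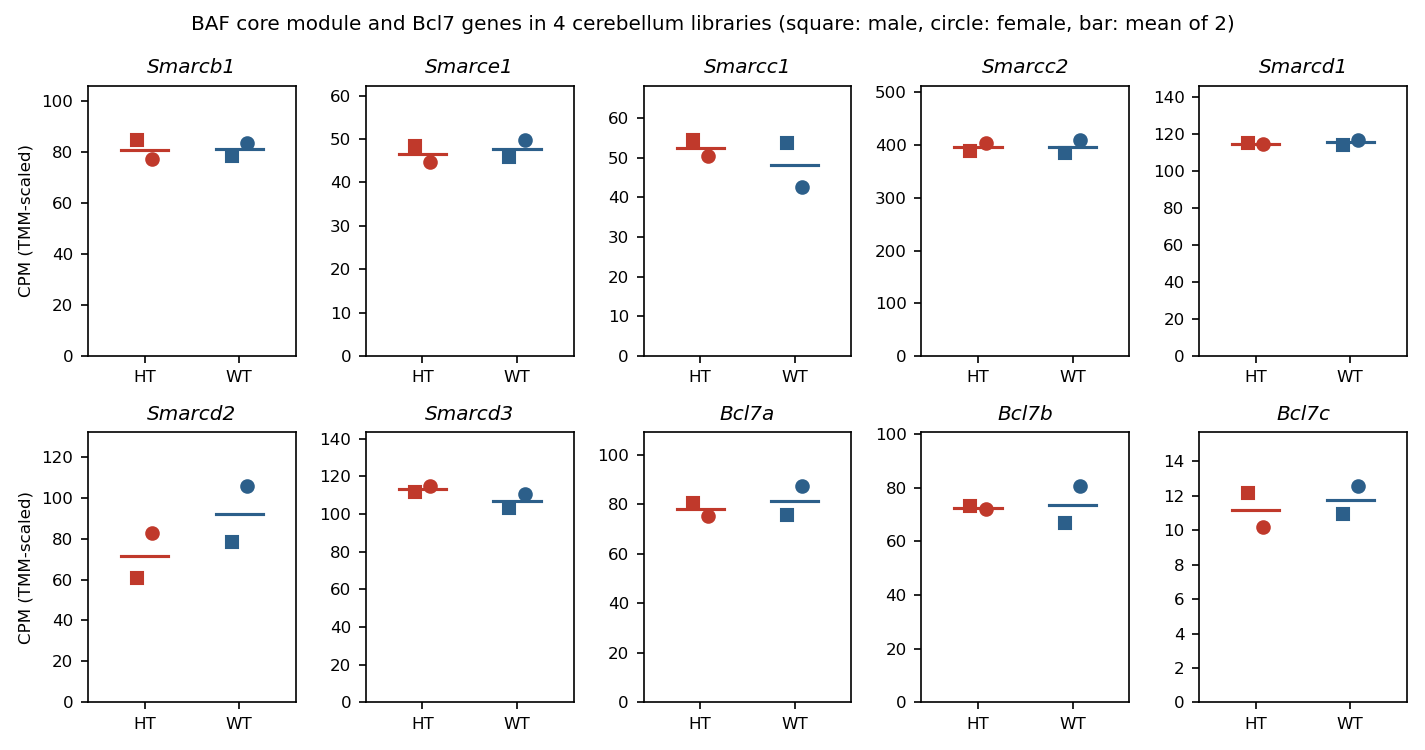
Level of each of the 10 genes in CPM (counts scaled to a common library total, TMM-scaled, linear axis from 0) in HT and WT cerebellum, with a square for the male library, a circle for the female library and a bar for the mean of 2. Smarcd2 spreads from 60.6 to 105 CPM, while Smarcd1 stays between 114 and 117 CPM in all 4 libraries.

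Smarcb1 and Smarce1 each fill their place in the core alone, with no relative to replace them, and Smarcb1 is a tumour suppressor in human and mouse. Levels are given as CPM, the count of a gene scaled to a common library total. Smarcb1 (chr10:75896769-75921617, minus strand) stood at 84.8 CPM in the HT male and 77.2 in the HT female, against 78.5 in the WT male and 83.8 in the WT female. The genotypes overlapped, with means of 81.0 ± 5.37 CPM in HT and 81.1 ± 3.75 in WT (SD, n = 2 each), a 0.998-fold level with a 95% interval of 0.845 to 1.18. Smarce1 (chr11:99209047-99231017, minus strand), whose HMG box binds DNA, stood at 48.3 CPM in the HT male and 44.8 in the HT female, against 45.8 in the WT male and 49.8 in the WT female. Its groups overlapped as well, at a 0.974-fold level (0.802 to 1.18). For both genes the HT male and the WT female were the higher libraries.

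Of the Smarcc scaffolds, Smarcc2 (BAF170) was far more abundant than Smarcc1 (BAF155), which is known for its role in neural progenitors and early embryos. Smarcc2 (chr10:128459248-128490482, plus strand) stood at 388 CPM in the HT male and 404 in the HT female, against 385 in the WT male and 410 in the WT female. The groups overlapped and the level in HT was 0.997-fold (0.856 to 1.16). Smarcc1 (chr9:110117708-110240178, plus strand) stood at 54.5 CPM in the HT male and 50.4 in the HT female, against 53.8 in the WT male and 42.6 in the WT female. The WT female was the low library and the other 3 lay close together, which gave means of 52.4 ± 2.88 CPM in HT and 48.2 ± 7.90 in WT (SD, n = 2 each). The log2 fold change of Smarcc1 was 0.13 ± 0.12 (SE, adjusted p = 0.746 in edgeR). Without the WT female it was -0.04, and without the WT male it was 0.30 (adjusted p = 0.0489 in edgeR), in a fit that called 17.5% of all tested genes. Dhx30, an RNA helicase gene that shares 123 exonic bases with Smarcc1 on the opposite strand, had a log2 fold change of 0.07 ± 0.10 (SE, adjusted p = 0.843 in edgeR).

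Per kilobase of transcript the difference between the scaffolds was again large. With the longest annotated transcript as the length, Smarcc2 averaged 86.9 ± 2.66 CPM per kb and Smarcc1 8.72 ± 0.942 (SD over the 4 libraries). Smarcc2 thus made up 90.01% of the level of the pair in the HT male and 91.02% in the HT female, against 90.05% in the WT male and 92.41% in the WT female. The mean share was 90.9% with this length, 87.7% with the coding length and 86.2% with the median transcript length. Smarcc2 stood first of the 10 genes per kb with the longest annotated transcript in every library, but behind Bcl7a and Bcl7b with the coding length.

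Smarcd1, Smarcd2 and Smarcd3 (BAF60a, b and c) compete for a single place in the core and link it to transcription factors. Smarcd1 (chr15:99702129-99713991, plus strand) was the steadiest of the 10 genes, with 115 CPM in the HT male and 115 in the HT female, against 114 in the WT male and 117 in the WT female. Its highest library was 1.02 times its lowest, a ratio that only 0.132% of all tested genes undercut, and counting error alone is 2.34% at its lowest count. Smarcd3 (chr5:24590818-24624411, minus strand), known for heart and muscle development and also expressed in neurons, stood at 112 CPM in the HT male and 115 in the HT female, against 103 in the WT male and 111 in the WT female. Both HT libraries were above both WT libraries for Smarcd3, the only one of the 10 genes whose groups did not overlap, where 22.4% of all tested genes had HT above WT and 22.3% had HT below WT. The difference was 1.06-fold (0.909 to 1.24) and did not pass the test (adjusted p = 0.807 in edgeR). Its overlapping neighbour Chpf2, an enzyme gene of chondroitin sulphate synthesis, stood at 37.3 CPM in the HT male and 43.8 in the HT female, against 34.7 in the WT male and 31.9 in the WT female. Chpf2 had a log2 fold change of 0.28 ± 0.14 (SE, adjusted p = 0.484 in edgeR, and 0.0315 without the WT male), and the part of Chpf2 reads in the Smarcd3 counts was not tested.

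Smarcd2 (chr11:106263179-106272972, minus strand), known in human and mouse for its need in the making of granulocytes, varied most of the 10. It stood at 60.6 CPM in the HT male and 82.7 in the HT female, against 78.5 in the WT male and 105 in the WT female. In each sex the HT library was the lower one, and in each genotype the female library was the higher one, so that the HT female was above the WT male and the genotypes overlapped. The means were 71.6 ± 15.6 CPM in HT and 92.0 ± 19.0 in WT (SD, n = 2 each). The log2 fold change was -0.36 ± 0.10 (SE), or 0.778-fold (0.664 to 0.912), and fell short of the threshold once adjusted (unadjusted p = 0.00492, adjusted p = 0.22 in edgeR). The log2 ratio was -0.35 between the females and -0.37 between the males. Since that near equality is what leaves little residual in a fit with sex as a term, it is part of the small p and no support beside it.

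The value for Smarcd2 depended on which libraries were compared. Without the HT male it was -0.16, and without the WT female it was -0.14. Without the WT male it was -0.56, where it passed the test (adjusted p = 6.22e-07 in edgeR) as 17.5% of all tested genes did, and without the HT female it was -0.61 (adjusted p = 0.949 in edgeR). These fits have no sex term, so the sexes are unequally mixed in them and the genotype with 2 libraries alone sets the spread.

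Granule cells are the main excitatory neurons of the cerebellum, and Purkinje cells are the output neurons of its cortex. Their markers mostly had lower fitted levels in HT as well. All 13 granule cell markers had a lower fitted level in HT (median log2 fold change -0.43), and their summed level was 4333 CPM in the HT male and 4858 in the HT female, against 5620 in the WT male and 6550 in the WT female. Of the 12 Purkinje cell markers 11 were lower, with sums of 4794 and 4500 CPM in the HT male and female, against 5299 and 6153 in the WT male and female. Markers of blood vessel cells, endothelial and mural, were lower for 10 of 10, with sums of 220 and 203 CPM in the HT male and female, against 241 and 347 in the WT male and female. None of the granule, Purkinje, endothelial or mural cell markers passed the test singly. Of 7 markers of cerebellar inhibitory interneurons 3 were higher and 4 lower (median log2 fold change -0.11), and their sums overlapped, at 1846 and 1691 CPM in the HT male and female, against 1750 and 1909 in the WT male and female. Of the 7, only the glycine transporter gene Slc6a5 passed the test, with a higher level in HT (log2 fold change 1.42 ± 0.18, SE, adjusted p = 0.0473 in edgeR). Higher in HT were 10 of 10 oligodendrocyte markers (sums of 14221 and 13414 CPM in the HT male and female, against 12218 and 12928 in the WT male and female), 10 of 10 microglia markers and 9 of 10 choroid plexus markers. The microglia sums overlapped, at 195 and 140 CPM in the HT male and female, against 142 and 156 in the WT male and female. The choroid plexus sums were 2699 and 1558 CPM in the HT male and female, against 1475 and 1463 in the WT male and female, so that the HT male stood apart. Of 9 astrocyte and Bergmann glia markers 3 were higher and 6 lower. Their sums overlapped, at 3140 and 3021 CPM in the HT male and female, against 3113 and 3683 in the WT male and female. The 1 blood marker tested, Alas2, stood at 9.76 and 5.71 CPM in the HT male and female, against 29.2 and 11.8 in the WT male and female. Of all 15117 tested genes 7723 had a higher and 7394 a lower fitted level in HT. Of 11 markers of brainstem and midbrain neurons 9 were higher, with sums of 281 and 253 CPM in the HT male and female, against 208 and 89.8 in the WT male and female, so that the library lowest in these markers, the WT female, was the one highest in Smarcd2. Of the 11, only Th, the tyrosine hydroxylase gene of dopamine and noradrenaline neurons, passed the test, with a higher level in HT (log2 fold change 1.15 ± 0.15, SE, adjusted p = 0.0473 in edgeR). Slc6a5 and Th are named here after their values were seen, and neither passed without a sex term or without the HT male, where 0 genes were called. In a piece of tissue, fewer cells of a type and less RNA per cell cannot be told apart, and the part of cell composition in the Smarcd2 difference was not tested.

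Within the Smarcd family the share of Smarcd2 per kb, with the longest annotated transcript, was 25.5% in the HT male and 31.6% in the HT female, against 31.6% in the WT male and 37.3% in the WT female. Averaged over the libraries Smarcd1 held 37.3%, Smarcd2 31.5% and Smarcd3 31.2%. This order depends on the length, since the longest annotated Smarcd3 transcript of 3774 bases keeps an intron and its longest protein-coding transcript has 1735 bases. With protein-coding transcripts Smarcd3 held 49.6%, Smarcd1 27.2% and Smarcd2 23.1%, and Smarcd2 had the smallest share also with the coding length (25.3%) and the median transcript length (23.3%).

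The Bcl7 proteins were a group of unequal members. Bcl7a (chr5:123343834-123374992, plus strand), a gene altered in human B-cell lymphomas, stood at 80.7 CPM in the HT male and 75.3 in the HT female, against 75.9 in the WT male and 87.3 in the WT female. Bcl7b (chr5:135168283-135181855, plus strand), which in human lies in the region deleted in Williams syndrome, stood at 73.2 CPM in the HT male and 72.0 in the HT female, against 67.0 in the WT male and 80.4 in the WT female. Bcl7c (chr7:127661456-127708933, minus strand) had the lowest CPM of the 10 genes. It stood at 12.2 CPM in the HT male and 10.2 in the HT female, against 10.9 in the WT male and 12.5 in the WT female. The genotypes overlapped for all of them, and the HT levels were 0.958-fold for Bcl7a (0.806 to 1.14), 0.989-fold for Bcl7b (0.831 to 1.18) and 0.951-fold for Bcl7c (0.695 to 1.30). The wider interval of Bcl7c goes with its 162 to 259 counts per library, where counting error alone is 7.86% at the lowest count. The microRNA genes Mir762, inside Bcl7c, and Mir671, inside Smarcd3, are listed at 0 in every library.

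Per kb Bcl7c stayed below its relatives with every length tried, holding between 3.04% of the family with the longest annotated transcript and 14.7% with protein-coding transcripts. Among all 10 genes Bcl7c was last with the longest annotated and the median transcript length. Smarcc1 was lower on average with protein-coding transcripts (8.72 CPM per kb against 10.1 for Bcl7c) and with the coding length (15.2 against 15.8). Bcl7b held 68.9% and Bcl7a 28.0% with the longest annotated transcript, but with the coding length Bcl7a held 48.1% and Bcl7b 45.9%, because the annotated Bcl7a transcript of 4718 bases holds 630 coding bases. The order of Bcl7a and Bcl7b per molecule therefore cannot be given from these counts. Among all 10 genes the level per kb of Smarcb1 moved with the choice of length too, at 10.9 ± 0.51 CPM per kb for the longest annotated transcript of 7441 bases, which keeps introns, and 48.8 ± 2.28 for its protein-coding transcript of 1660 bases (SD over the 4 libraries).

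**Figure D2:**
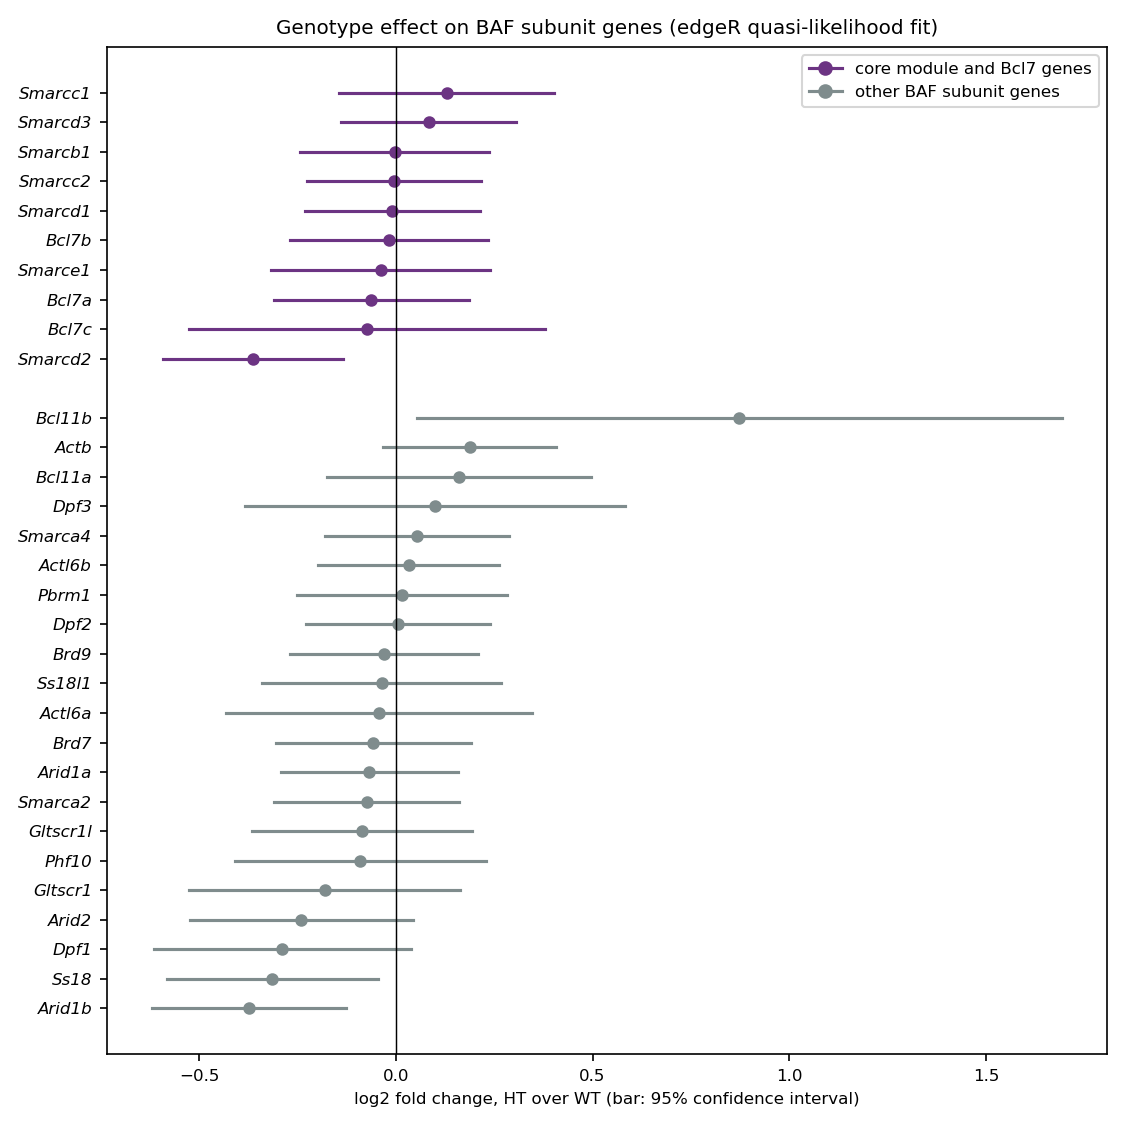
Fitted log2 fold change of HT over WT for the 10 core module and Bcl7 genes (top) and the 21 other BAF subunit genes (bottom), with points for the estimate and bars for the 95% confidence interval from edgeR. The intervals of 9 of the 10 genes include 0 and that of Smarcd2 does not, before any adjustment for the number of genes.

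Ratios between relatives within a library do not depend on how the libraries are scaled. Of 7 such ratios, those of Smarcd3 to Smarcd1 and Smarcd3 to Smarcd2 separated the genotypes and the other 5 overlapped. By the order of the libraries alone, a share of 0.333 of ratios would separate 2 libraries from 2, so 2 of 7 is no excess. The 2 ratios are also not independent, since both hold Smarcd3, whose own level was higher in both HT libraries. The count ratio of Smarcd3 to Smarcd2 was 1.85 in the HT male and 1.39 in the HT female, against 1.31 in the WT male and 1.05 in the WT female. The mean log2 ratio was 0.68 ± 0.29 in HT and 0.23 ± 0.23 in WT (SD, n = 2 each), a difference of 0.45. The ratio of Smarcd3 to Smarcd1 was 0.974 in the HT male and 1.00 in the HT female, against 0.904 in the WT male and 0.948 in the WT female, a log2 difference of 0.09. Both had p = 0.333 in an exact two-sided permutation test (adjusted p = 0.934 over the 7 ratios), which is the smallest p that 2 libraries against 2 allow. The ratio of Smarcd2 to Smarcd1 was 0.528 in the HT male and 0.721 in the HT female, against 0.688 in the WT male and 0.904 in the WT female. It was lower in HT in each sex, by a log2 difference of -0.33 between the females and -0.38 between the males, but the genotypes overlapped, with the HT female above the WT male (mean difference -0.35, exact permutation p = 0.667). These permutation tests do not take sex into account. The ratio of Smarcc1 to Smarcc2 differed by 0.13 on the log2 scale and those among the Bcl7 genes by -0.06 to 0.01, with exact permutation p from 0.667 to 1.

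**Figure D3:**
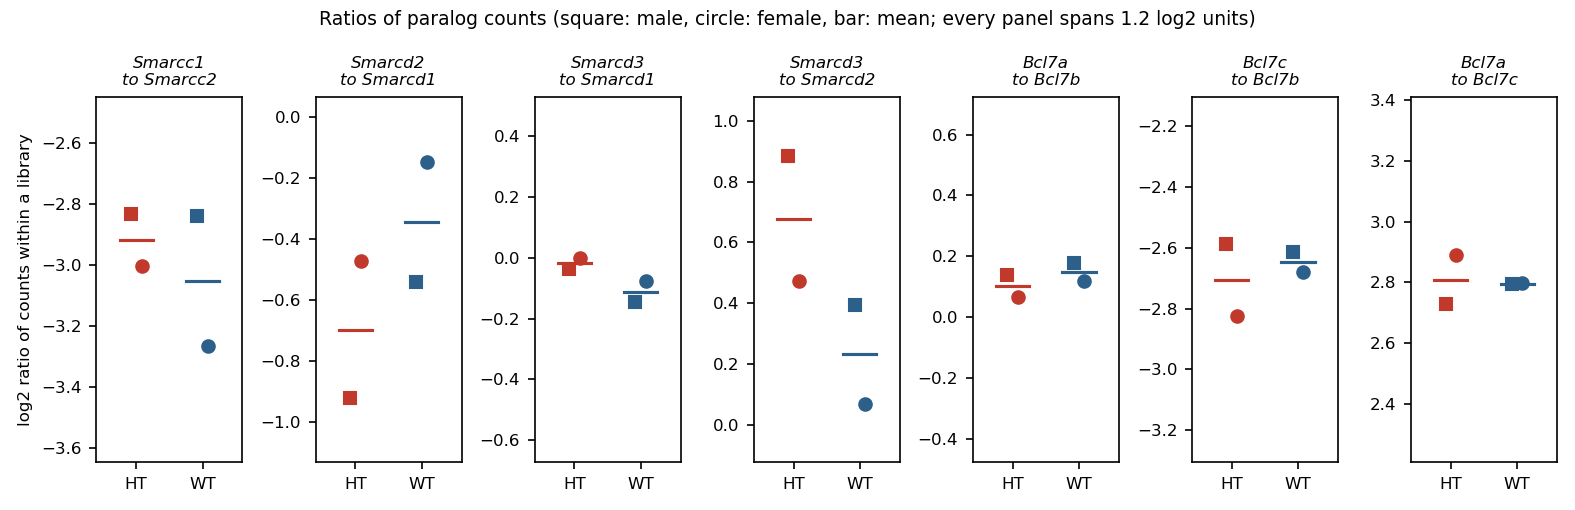
Log2 ratio of the counts of 2 related genes within each library, for HT and WT, with a square for the male, a circle for the female and a bar for the mean of 2. Every panel spans the same range on the log2 scale, so that the spread of Smarcd3 to Smarcd2, from 0.07 to 0.88, can be set against that of Bcl7a to Bcl7b, from 0.07 to 0.18.

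The sexes were compared in the same fit. None of the 10 genes passed the test for female over male, where the background was 0.0595% of all tested genes, and adjusted p ran from 0.994 to 0.998. Smarcd2 had the largest sex difference of the 10, with 82.7 CPM in the HT female and 105 in the WT female, against 60.6 in the HT male and 78.5 in the WT male, a log2 fold change of 0.44 ± 0.10 (SE, unadjusted p = 0.0014, adjusted p = 0.994 in edgeR). The small residual described for the genotype difference of Smarcd2 is part of this small p too. Smarcd2 was the only one of the 10 at an unadjusted p under 0.05, where 3.82% of all tested genes lay. Both female libraries were above both male libraries for Smarcd2 and Smarcc2 (13.2% of all tested genes) and below them for Smarcc1 (13.7%), whose log2 fold change of female over male was -0.22 ± 0.13 (SE).

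The difference between HT and WT often had opposite signs in the sexes. In the females 8 of the 10 genes were lower in HT than in WT, where 50.6% of all tested genes were, and in the males 9 of the 10 were higher in HT, where 50.3% were. For 7 genes both held (21.2% of all tested genes), namely Smarcb1, Smarce1, Smarcc2, Smarcd1, Bcl7a, Bcl7b and Bcl7c. The signs of Smarcd1 and Smarcc2 rested on very small values. The log2 ratio was -0.025 between the females and 0.0079 between the males for Smarcd1, and -0.021 and 0.013 for Smarcc2. The log2 ratio of Bcl7c was -0.30 between the females and 0.15 between the males, and that of Bcl7a was -0.21 between the females and 0.09 between the males. The difference itself did not pass the test for any of the 10 genes (edgeR quasi-likelihood test of the product of genotype and sex, smallest unadjusted p = 0.184, all adjusted p = 0.998), where 0.0198% of all tested genes passed. This test used a separate fit with no sex term, so any sex difference was left in its residual. For Smarcd2 its standard error was 0.43, against 0.10 for genotype in the main fit. Part of that gap is scale, since the product measures a difference between 2 differences. For Smarcd1, whose log2 fold change of female over male was 0.014, the standard errors were 0.22 and 0.10. Failing this test therefore does not show that the genotype difference was equal in the sexes.

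The same crossing separated the libraries by depth. The HT male and the WT female had 20287016 and 20616219 counts, and the HT female and the WT male had 15950899 and 16453759. Both deeper libraries were above both shallower ones in CPM for 6 of the 10 genes, Smarcb1, Smarce1, Smarcd1, Bcl7a, Bcl7b and Bcl7c, where 14.7% of all tested genes were. For Smarcd1 this rested on 114.83 CPM in the HT male against 114.68 in the HT female. For none of the 10 were both deeper libraries below both shallower ones. A genotype difference that changes with sex and a difference by depth cannot be told apart with these 4 libraries.

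**Figure D4:**
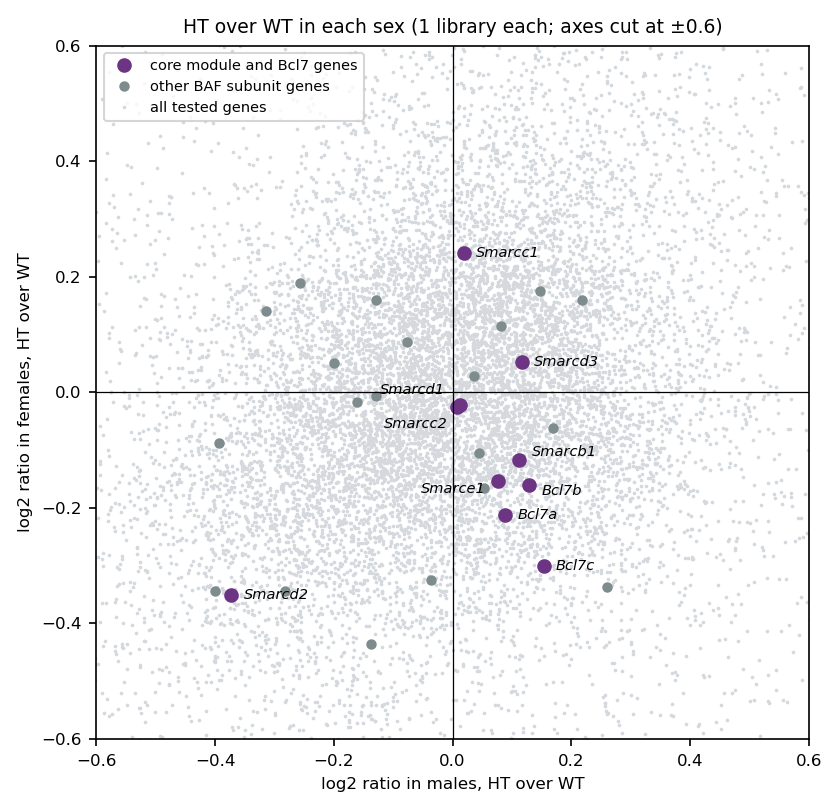
Log2 ratio of HT over WT in the males (horizontal) and the females (vertical), from 1 library each, for the 10 genes, the other BAF subunit genes and all tested genes, with axes ending at 0.6, so that Bcl11b at 1.62 in females is not shown. Of the 10 genes, 7 lie to the lower right, while Smarcd2 lies to the lower left, at -0.35 in the females and -0.37 in the males.

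The rest of the complex was read from a list of 21 other BAF subunit genes, all of which were tested. None passed the test between HT and WT, 8 had a higher and 13 a lower fitted level in HT, and the median log2 fold change was -0.04. Of all 15117 tested genes 7723 had a higher and 7394 a lower level. At an unadjusted p under 0.05 there were 3 of the 21, against 11.7% of all tested genes. Both HT libraries were below both WT libraries for 7 of the 21 and above them for 3, against 22.3% and 22.4% of all tested genes.

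Arid1b, the gene knocked out, was the list member of smallest p, with 53.0 CPM in the HT male and 55.9 in the HT female, against 69.9 in the WT male and 70.9 in the WT female. Its log2 fold change of -0.37 ± 0.11 (SE, adjusted p = 0.243 in edgeR) was close to the -0.36 of Smarcd2, and unlike for Smarcd2 the HT and WT libraries did not overlap. Ss18, which sits beside the motor and is known from the fusion protein of human synovial sarcoma, stood at 42.6 CPM in the HT male and 44.1 in the HT female, against 51.8 in the WT male and 56.0 in the WT female, a log2 fold change of -0.31 ± 0.12 (SE, adjusted p = 0.351 in edgeR). Bcl11b, a zinc finger subunit, averaged 7.48 ± 0.879 CPM in HT and 4.35 ± 2.53 in WT (SD, n = 2 each), with a log2 fold change of 0.87 ± 0.36 (SE, adjusted p = 0.398 in edgeR) that was 1.62 between the females and 0.16 between the males. Without the WT female the Bcl11b value was 0.28, and without the WT male it was 1.53 (adjusted p = 3.85e-06 in edgeR). The brainstem and midbrain markers were likewise lowest in the WT female, and their part in the Bcl11b value was not tested. Dpf1, the neuronal PHD finger subunit, had -0.29 ± 0.15 (SE), Arid2 of the PBAF complex -0.24 ± 0.13 (SE) and Actb, the actin found in the motor module, 0.19 ± 0.10 (SE), with adjusted p from 0.495 to 0.513 in edgeR. The Dpf1 value was -0.12 without the WT female and -0.46 without the WT male, and the Arid2 value was -0.055 without the HT male and -0.44 without the HT female. Without the WT male, where 17.5% of all tested genes were called, Arid1b (adjusted p = 0.0029), Ss18 (0.00747), Bcl11b and Dpf1 (0.00384) passed the test in edgeR. Without the WT female, where 4.3% were called, Arid1b alone of the 21 passed it (adjusted p = 0.0261 in edgeR).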

How the data were processed

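The authors deposited raw counts of reads per gene symbol, 1 column per library. Libraries were stranded poly(A) libraries read from a single end over 100 bases in 1 lane, per the labels' protocols. The submitters' processing notes name STAR, featureCounts, FastQC, edgeR and mm9, with no settings for strand or multiply matching reads.

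The whole table was fitted in R 4.3.3 with edgeR 4.0.16 (quasi-likelihood, robust), where terms for genotype and sex left 1 residual degree of freedom. The product of genotype and sex was tested in a separate fit with terms for genotype and that product and no sex term. Genes were kept by filterByExpr, and libraries scaled by TMM (factors 0.999 to 1.00). Two-sided p-values were adjusted over 15117 genes (Benjamini-Hochberg, threshold 0.05). The standard error was the log2 fold change over the square root of F, and 95% intervals used its total degrees of freedom. Single-library ratios used a prior count of 2. With 3 counts as the floor, a gene with no count could lie at 0.146 to 0.188 CPM, for counting error only.

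The members, gene lists and tests were chosen with earlier results of these data known. All members, Arid1b, the 6 other subunits of smallest p and overlapping genes were named by rule. Levels per kb used GENCODE M21 lengths. The protein-coding length was added after seeing the data. The alternatives were DESeq2 1.42.0, the likelihood ratio test, limma-voom (limma 3.58.1), other scalings and filters, no sex term and leaving out each library. In 3 simulations of the HT over WT comparison with 14965 genes tested, 38.5% of 1.5-fold and 76.0% of 2-fold changes were recovered, and 3.89% of calls were false. The simulated spread followed the expression level alone, with no sex or tissue difference. These rates may therefore be better than those in the 4 real libraries.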

Additional observations from a re-analysis of the deposited data

How the results depend on the processing

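No paired analysis was possible because the labels carry no replicate numbers that could serve as a block. With 1 library of each sex per genotype, the sex term of the fit already compares HT with WT within each sex. DESeq2, the likelihood ratio test, limma-voom, other scalings, other filters and the fit without a sex term called none of the 10 genes and none of the 21 other subunits, and turned the direction of none of the 10 genes or of Arid1b, Ss18, Bcl11b, Dpf1, Actb and Arid2. The direction of the other 15 subunits was not followed. With a library left out, calls ran from 0 to 2 among the 10 genes and from 0 to 4 among the other subunits, all of them without the WT male except Arid1b, which was called without either WT library. Over all genes the background moved far more: 3 higher and 0 lower in HT in the fit reported, 16 and 18 with DESeq2, 64 and 102 with the likelihood ratio test, 5 and 2 with DESeq2's size factors, 5 and 8 with library totals, 290 and 263 with no filter, 0 and 0 with 1 CPM in at least 2 libraries or no sex term, and between 0 and 1487 higher and 0 and 1243 lower with a library left out. The cause was not tested. The median of the 10 genes ran from -0.074 to 0.035 and that of the 21 from -0.10 to 0.00055, so that both changed sign. Log2 fold changes that crossed 0 with a library left out ran from -0.072 to 0.053 (Smarcb1), -0.10 to 0.021 (Smarce1), -0.037 to 0.30 (Smarcc1), -0.051 to 0.040 (Smarcc2), -0.025 to 0.0049 (Smarcd1), -0.16 to 0.039 (Bcl7a), -0.15 to 0.11 (Bcl7b) and -0.21 to 0.041 (Bcl7c). Log2 ratio differences ran from -0.080 to 0.35 (Smarcc1 to Smarcc2), -0.58 to -0.13 (Smarcd2 to Smarcd1), 0.058 to 0.13 (Smarcd3 to Smarcd1), 0.24 to 0.65 (Smarcd3 to Smarcd2) and -0.083 to -0.0088 (Bcl7a to Bcl7b).

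Shares per kb changed with the length by construction. With the median transcript length they were 86.2% (Smarcc2), 41.1% (Smarcd1), 23.3% (Smarcd2), 35.6% (Smarcd3), 15.3% (Bcl7a), 71.7% (Bcl7b) and 12.98% (Bcl7c). With the coding length they were 87.7% (Smarcc2), 25.3% (Smarcd2), 37.7% (Smarcd3), 48.1% (Bcl7a), 45.9% (Bcl7b) and 6.02% (Bcl7c). With protein-coding transcripts, added after seeing the data, they were 27.2% (Smarcd1), 23.1% (Smarcd2), 49.6% (Smarcd3), 24.6% (Bcl7a), 60.6% (Bcl7b) and 14.7% (Bcl7c). Depth limits Bcl7c most.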
